A study of Mus musculus with 22 samples.

Results

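Splicing regulators are RNA-binding proteins that decide which exons of a pre-mRNA are kept. The list examined here held 49 mouse genes, chosen by name: the SR proteins, the hnRNP proteins, the CELF, RBFOX, NOVA, PTB, ELAVL, MBNL and KHDRBS families, Srrm4 and Tardbp. Of these, 47 were found under a single platform symbol, often an older one (Sfrs1 for Srsf1, Brunol4 for Celf4, A2bp1 for Rbfox1), and all 47 were tested among 15951 genes. Tra2b and Rbfox3 were not analysed here. Whole brains of naive adult males from 2 inbred strains, C57BL/6J (B6, 10 mice) and DBA/2J (D2, 12 mice), were measured on an exon array, 1 mouse per array, and the series title names alternative splicing as its subject. No treatment or transgene is named, and each strain is a single genotype.

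SR proteins bind exonic enhancers and mostly promote the use of an exon, while many hnRNP proteins bind silencers and oppose it. The balance of both sets the default pattern of a cell. In the brain this pattern is overlaid by proteins found mainly or only in neurons, among them Nova1 and Nova2, Rbfox1, Ptbp2, the neuronal ELAVL proteins, Celf4 and Srrm4. They give neurons isoforms of ion channels, adhesion molecules and synaptic proteins that other tissues lack. Several SR and hnRNP genes also limit their own mRNA by splicing in an exon that leads to its decay.

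Values are on a log2 scale. A gene value is the median, on an array, of the gene's probesets that passed a filter on the mean signal (at least 1.44, the median of all probesets). The 47 genes had 1034 such probesets, between 7 (Hnrnpa1 and Srsf9) and 85 (Hnrnpa3) per gene, with a median of 20. Precision is limited by the number of mice. The 95% interval of a strain difference in the gene value reached between 0.129 and 0.32 to either side of the estimate.

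The overall probeset median of an array ranged from 1.41 to 1.47 in B6 and from 1.45 to 1.51 in D2. The ranges overlapped between 1.45 and 1.47. A letter in the array file names, of unstated meaning, was B on 4 arrays (B6 replicates 5 and 6, D2 replicates 13 and 22) and A on the other 18. Markers of brain cells were present in both strains: the mean of 10 neuronal markers ranged from 8.21 to 8.54 in B6 and from 8.02 to 8.46 in D2. Of these 10, Map2, a microtubule protein of dendrites, fell by 0.38 in D2 and 9 were not called. Of the other lists, 4 of 10 astrocyte markers fell and 1 rose (50% called), and 3 of 9 myelin markers fell (33.3%). Of the microglial markers 1 of 9 fell (11.1%) and of the endothelial markers 2 of 8 (25%). Of all genes tested 10.9% were called, 8.29% lower and 2.56% higher. The mean of 8 muscle markers was low (2.56 to 3.34 in B6, 2.93 to 3.40 in D2), and Myl1 rose by 0.75. In whole brain, fewer cells of a type and less RNA per cell cannot be told apart, and the part of cell composition in the values below was not tested.

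Strain differences of the splicing regulators were small. Celf4 was the only one of the 47 genes called at gene level (limma, Benjamini-Hochberg adjusted p under 0.05), and it fell in D2. That is 2.13% of the genes, against 10.9% of all genes tested in either direction and 8.29% that fell, and 0 rose, against 2.56%. Before adjustment, 8 of the 47 had a p under 0.05 (17%, against 25.3% of all genes tested). None of the 47 had B6 and D2 values that did not overlap, which held for 1.18% of all genes. The differences ranged from -0.41 (Celf4) to 0.14 (Ptbp2) with a median of -0.11, where the median of all genes tested was -0.053. For 40 of the 47 genes the 95% interval excluded a change of 0.5 in either direction, and for all 47 it excluded a change of 1. Of the 47 differences, 38 lay below 0 (80.9%, against 62.0% of all genes). After centring each array on its gene median, 25 lay below 0 (53.2%, against 39.5%), and with the array median as covariate 19 (40.4%, against 44.8%). The share below 0 thus changed with both. It stayed above that of all genes after centring and not with the covariate. The covariate is the overall probeset median of an array. It ran higher in D2, so the covariate is partly aligned with strain and takes up part of the strain difference. A call lost with it, here and below, cannot be assigned to scaling. Celf4 was again the only call after centring, and 0 of the 47 were called with the covariate. With the file letter as a block, 4 of the 47 were called lower (8.51%, against 10.2% of all genes): Celf4, Srsf1, Hnrnpm and Ptbp3. The filter at the 75th percentile gave 5 lower (10.6%, against 9.99%): Celf4, Khdrbs2, Mbnl2, Ptbp3 and Srsf1. The mean over probesets gave 4 lower (8.51%, against 12.1%): Celf1, Celf4, Hnrnpc and Khdrbs2.

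**Figure D1:**
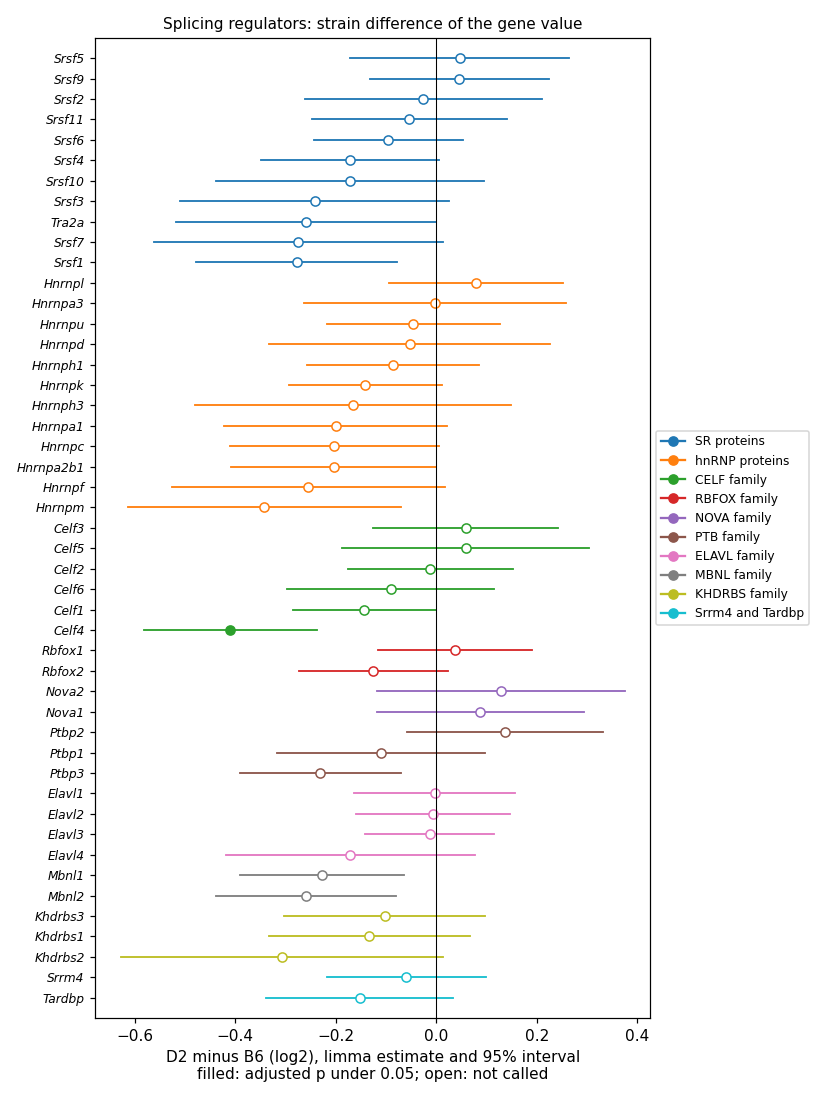
D2 minus B6 of the gene value (log2) for the 47 splicing regulators, ordered within families, with limma's estimate and 95% interval over 10 B6 and 12 D2 mice. Only Celf4 (-0.41) is filled, which marks an adjusted p under 0.05; the other estimates lie between -0.34 (Hnrnpm) and 0.14 (Ptbp2).

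The CELF proteins bind GU-rich RNA and act both on splicing in the nucleus and on stability and translation in the cytoplasm. Celf4 is enriched in excitatory neurons, and mice that lack it have seizures. Its gene value was lowest 7.17, median 7.61 and highest 7.78 in B6, and lowest 6.86, median 7.15 and highest 7.45 in D2. All 12 D2 mice lay below the B6 median and 6 of them below every B6 mouse, while the ranges overlapped. The mean ± SD was 7.58 ± 0.18 over 10 B6 mice and 7.17 ± 0.19 over 12 D2 mice. The difference was -0.41 ± 0.084 (SE), a D2 level 0.753 times that of B6 (limma adjusted p = 0.00159). By its p-value it ranked at place 465 among the 15951 genes. The fall was spread over the gene: 21 of its 25 probesets were lower in D2, and 6 were called on their own, all lower. These 6 differences ran from -0.66 to -0.41. For probeset 4429135 all 12 D2 mice (at most 7.6616) lay below all 10 B6 mice (at least 7.6634). How many of all probesets separate in this way was not counted. The median over the 25 Celf4 probesets was -0.29.

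The fall of Celf4 was -0.44 on the 18 arrays with file letter A (adjusted p = 0.000731) and -0.325 on the 4 with letter B (adjusted p = 0.561). It was -0.27 with the mean over probesets (adjusted p = 0.00202) and was no longer called with the array median as covariate (-0.35, adjusted p = 0.132).

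The other 5 CELF genes were not called with the median over probesets. Celf1, a regulator of developmental splicing in muscle and brain, had a difference of -0.14 ± 0.069 (SE), and all 12 D2 mice lay below the B6 median (B6 lowest 7.00, median 7.29, highest 7.46; D2 6.98, 7.13 and 7.28). With the mean over probesets Celf1 was called (-0.18, adjusted p = 0.0194). Celf3 had the highest difference of the family, 0.059 ± 0.089 (SE). Celf5 was at 0.058, Celf2 at -0.012 and Celf6 at -0.090. Beside Celf4, the brain-enriched Celf3, Celf5 and Celf6 thus had strain ranges that overlapped widely. Whether the difference of Celf4 is larger than that of these genes was not tested.

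**Figure D2:**
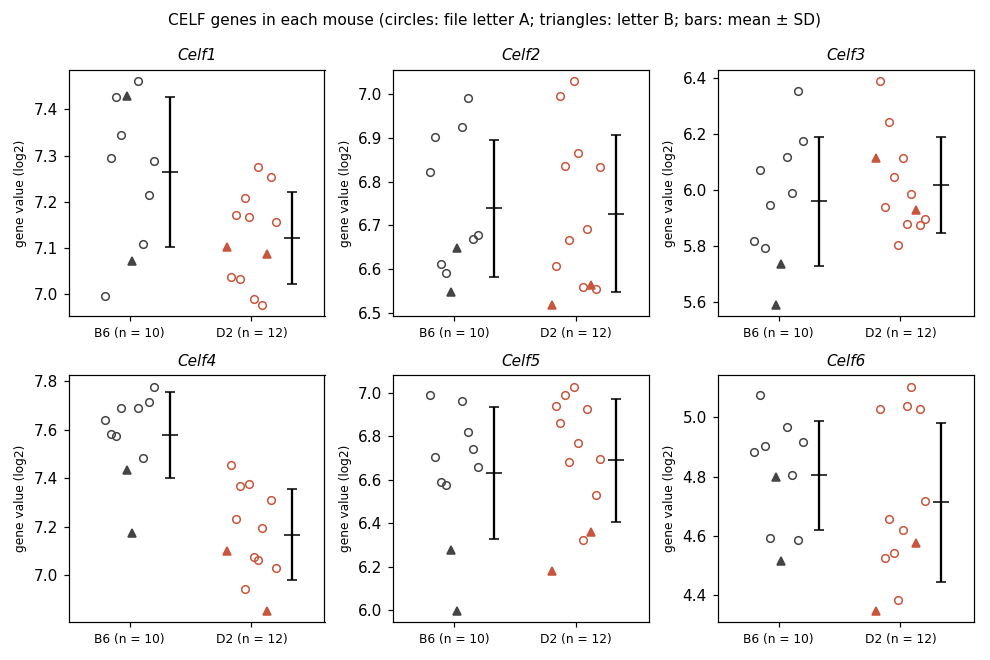
Gene values (log2) of Celf1 to Celf6 in each mouse, B6 in grey and D2 in red, with open circles for arrays of file letter A, filled triangles for letter B, and bars for the mean ± SD. Celf4 lies lower in D2 (7.17 against 7.58), while Celf2, Celf3, Celf5 and Celf6 overlap; in Celf5 the 4 triangles, at most 6.36, lie near the bottom.

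None of the 11 measured SR genes was called in D2 against B6. Their median difference was -0.17 and 9 of 11 lay below 0, against 6 of 11 with each array centred and 4 of 11 with the array median as covariate. Srsf1, the prototype SR protein, had the lowest value, -0.28 ± 0.097 (SE; limma adjusted p = 0.0646). Its gene value was lowest 6.68, median 7.06 and highest 7.42 in B6, and lowest 6.51, median 6.74 and highest 7.26 in D2. In both strains the highest array was one of file letter B (B6 replicate 5 and D2 replicate 13). With the file letter as a block, its difference was -0.26 and was called (adjusted p = 0.0127), as it was on the letter A arrays alone (-0.29, adjusted p = 0.0245). Srsf7 (-0.27) and Srsf3 (-0.24), which also carry mRNA to the cytoplasm, and Tra2a (-0.26), a homologue of the fly sex-determination factor transformer-2, were not called, nor were Srsf4 and Srsf10 (both -0.17). All 18 probesets of Srsf3 were lower in D2, but none was called on its own. Here and below, probesets of a gene share the same mice and array scaling, so such counts are not independent. Srsf5 had the highest value of the family (0.047 ± 0.11, SE), and Srsf9 (0.046), Srsf2 (-0.025), Srsf11 (-0.053) and Srsf6 (-0.095) were near 0.

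The 12 hnRNP genes gave a similar picture, with 0 called, a median of -0.15 and 11 of 12 below 0 (7 of 12 with each array centred, 6 of 12 with the covariate). Hnrnpm, which binds GU-rich intronic sites, had the lowest value, -0.34 ± 0.13 (SE; limma adjusted p = 0.0989). Its values were lowest 6.97, median 7.20 and highest 7.95 in B6, and 6.66, 6.87 and 7.72 in D2, and 8 of 12 D2 mice lay below every B6 mouse. With the file letter as a block it was called (-0.32, adjusted p = 0.00193). Hnrnpf, which binds runs of G, was at -0.25, and Hnrnpa2b1, Hnrnpc and Hnrnpa1, a repressor of many exons, were at -0.20 each. All 7 probesets of Hnrnpa1 and all 12 of Hnrnph3 (-0.17) were lower in D2. How many of all genes have only lowered probesets was not counted. Hnrnpl, which binds CA repeats, had the highest value (0.078 ± 0.084, SE). Hnrnpa3 (-0.0022), Hnrnpu (-0.046), Hnrnpd (-0.052), Hnrnph1 (-0.086) and Hnrnpk (-0.14) complete the family. Several SR and hnRNP genes have processed pseudogenes of similar sequence, and whether probesets also read these was not tested.

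Of the regulators that are specific to or enriched in neurons, Rbfox1 was at 0.038 ± 0.075 (SE) and the more widely expressed Rbfox2 at -0.12 ± 0.072. Nova1 and Nova2, which bind clustered short sites and control synaptic exons, were the only family with both members above 0 (0.088 ± 0.10 and 0.13 ± 0.12, SE), and neither was called. Both stayed above 0 under every alternative run. Ptbp1 represses neuronal exons outside neurons and is replaced by Ptbp2 as neurons form. Ptbp2 was lowest 5.74, median 6.43 and highest 6.59 in B6, and 6.19, 6.46 and 6.71 in D2, so that the strain medians nearly coincided. Its difference, 0.14 ± 0.095 (SE), was the highest of all 47 genes, and Ptbp1 was at -0.11 ± 0.10. Ptbp3 was lowest 5.94, median 6.19 and highest 6.36 in B6, and 5.66, 5.92 and 6.20 in D2. Of the 12 D2 mice 11 lay below the B6 median, and the difference was -0.23 ± 0.078 (SE; limma adjusted p = 0.0567). It was called with the file letter as a block (-0.23, adjusted p = 0.0484).

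Of the 4 ELAVL genes, Elavl1 (-0.0026), Elavl2 (-0.0071) and Elavl3 (-0.013) had nearly the same mean in both strains. Elavl1 is expressed in most cells and the other members are neuronal. Elavl4 was at -0.17 ± 0.12 (SE). The muscleblind genes, whose proteins are trapped by repeat RNA in myotonic dystrophy, were at -0.26 ± 0.087 (Mbnl2, SE; limma adjusted p = 0.0561) and -0.23 ± 0.080 (Mbnl1, SE; adjusted p = 0.0663). Mbnl2 was lowest 7.32, median 7.52 and highest 7.79 in B6, and 6.74, 7.37 and 7.49 in D2. Mbnl1 was lowest 6.35, median 6.65 and highest 6.92 in B6, and 6.21, 6.38 and 6.61 in D2. For both, all 12 D2 mice lay below the B6 median, and neither was called. On the letter A arrays alone Mbnl2 was called (-0.33, adjusted p = 0.032). Khdrbs2 is a relative of Sam68 that acts on neurexin exons. It was lowest 4.07, median 4.56 and highest 5.07 in B6, and 3.34, 4.34 and 4.71 in D2, a wide spread in both strains. Its difference was -0.31 ± 0.16 (SE), with all 13 of its probesets lower in D2 and none called. It was called with the filter at the 75th percentile (-0.30, adjusted p = 0.028) and with the mean over probesets (-0.27, adjusted p = 0.032), and turned to 0.21 with the array median as covariate (adjusted p = 0.65). Khdrbs1, which encodes Sam68, was at -0.13 and Khdrbs3 at -0.10. Srrm4, which drives the inclusion of neuronal microexons, was at -0.059 ± 0.077 (SE). Tardbp, which encodes TDP-43 and keeps cryptic exons out of mRNAs, was at -0.15 ± 0.091 (SE).

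Single probesets were then compared, since a difference in only one of them can go unseen in the gene value. Of the 1034 probesets, 6 were higher and 16 lower in D2 at their own level (2.13%, against 4.07% of the probesets of all genes tested, 1.26% higher and 2.82% lower, and 3.91% of all kept probesets). They belonged to 15 genes. Celf4 held 6 of the 16 lower ones. Outside the genes described next, the largest falls were in Mbnl2 (probeset 5094648, 4.15 ± 0.36 in B6 and 3.08 ± 0.79 in D2, SD), Srsf7 (5424792, by -0.65), Srsf6 (5326805, by -0.62) and Hnrnpc (4887077, by -0.55). The index of these 4 probesets was not called. To set a probeset against its gene, the gene value of an array was subtracted from the probeset's log2 value there. This splicing index was called where the adjusted p was under 0.05 and the difference at least 0.5. This held for 8 probesets, 6 higher and 2 lower in D2 (0.774%, against 1.67% of all probesets, 0.894% higher and 0.772% lower), each in a different gene (17% of the 47 genes, against 14.0% of all genes tested). The 47 genes have more probesets than the average gene (median 20 against 12). Reasons other than splicing can give a call, and whether D2 variants lie under the probes was not tested. Which exon a probeset reads was not analysed here. How many probesets of all genes have a level or an index that does not overlap between the strains was not counted.

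Celf1 had the largest of these differences. Its probeset 5594848 was lowest 3.52, median 3.81 and highest 4.70 in B6, and lowest 0.71, median 1.72 and highest 3.27 in D2. The strains did not overlap, and 2 of 12 D2 mice lay below the filter level of 1.44, so that the size of the fall is limited by the background. The level fell by 1.95 (3.93 ± 0.41 in B6, 1.97 ± 0.82 in D2, SD) while the gene value differed by -0.14, and the index fell by 1.81. None of the other 30 probesets of Celf1 was called. On the 4 letter B arrays alone the index difference was -0.66 and was not called (adjusted p = 0.696), and on the letter A arrays it was called. With the array median as covariate it was -1.59 and not called (adjusted p = 0.0684).

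Rbfox1 had the other lowered index. Probeset 5373397 was lowest 3.50, median 4.03 and highest 4.49 in B6, and 2.15, 3.11 and 3.92 in D2. Its level fell by 0.88 and its index by 0.92, and all 12 D2 mice lay below the B6 median of the index. A different Rbfox1 probeset (4890175) was higher in D2 by 0.38 at its own level, with an index difference of 0.34 that was not called.

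Srsf1 had a probeset that ran against its gene. Probeset 5449043 was lowest 8.12, median 8.31 and highest 8.53 in B6, and 8.45, 8.63 and 9.04 in D2. Its level rose by 0.35 while the gene value differed by -0.28, and the index rose by 0.62. The index did not overlap between the strains (B6 at most 1.59, D2 at least 1.65). The probeset's own level lay far above the filter level in every mouse. With the mean over probesets as the gene value, its index difference was 0.45, under the minimum of 0.5.

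In Ptbp2 probeset 5166973 rose by 0.74, from 4.82 ± 0.33 in B6 to 5.56 ± 0.21 in D2 (SD), and its index by 0.60. Another Ptbp2 probeset, 5397077, rose by 0.55 at its own level. In Celf2 probeset 5321543 rose by 0.56 and its index by 0.58, and 11 of 12 D2 mice lay above the B6 median of the index. In the last 3 genes the index rose without a called change of the probeset itself: 0.66 in Hnrnpm (probeset 4650229), 0.63 in Celf4 (5544519) and 0.55 in Tra2a (5166094). There the gene values differed by -0.34, -0.41 and -0.26, and the probesets' own levels by 0.32, 0.22 and 0.30. Only in Celf4 was that lower gene value itself called. The Celf4 probeset lay far below its gene (3.62 in B6 and 3.84 in D2, gene value 7.58 and 7.17). So did that of Hnrnpm (4.82 and 5.14, gene value 7.31 and 6.97). The Tra2a probeset lay near its gene (5.65 and 5.95, gene value 5.73 and 5.47). The part of background in these index differences was not tested. Of the 8 calls, 5 had a called change of the probeset's own level. None of the 8 was called with the array median as covariate, which is partly aligned with strain. There the index difference was 0.15 in Tra2a, 0.26 in Celf4 and 0.39 in Srsf1, and -0.91 in Rbfox1 and 0.57 in Hnrnpm. With the mean over probesets 4 remained called (Celf1, Hnrnpm, Ptbp2 and Rbfox1), and on the letter A arrays 4 (Celf1, Hnrnpm, Rbfox1 and Srsf1). Celf2, Celf4 and Tra2a lost their calls in both.

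**Figure D3:**
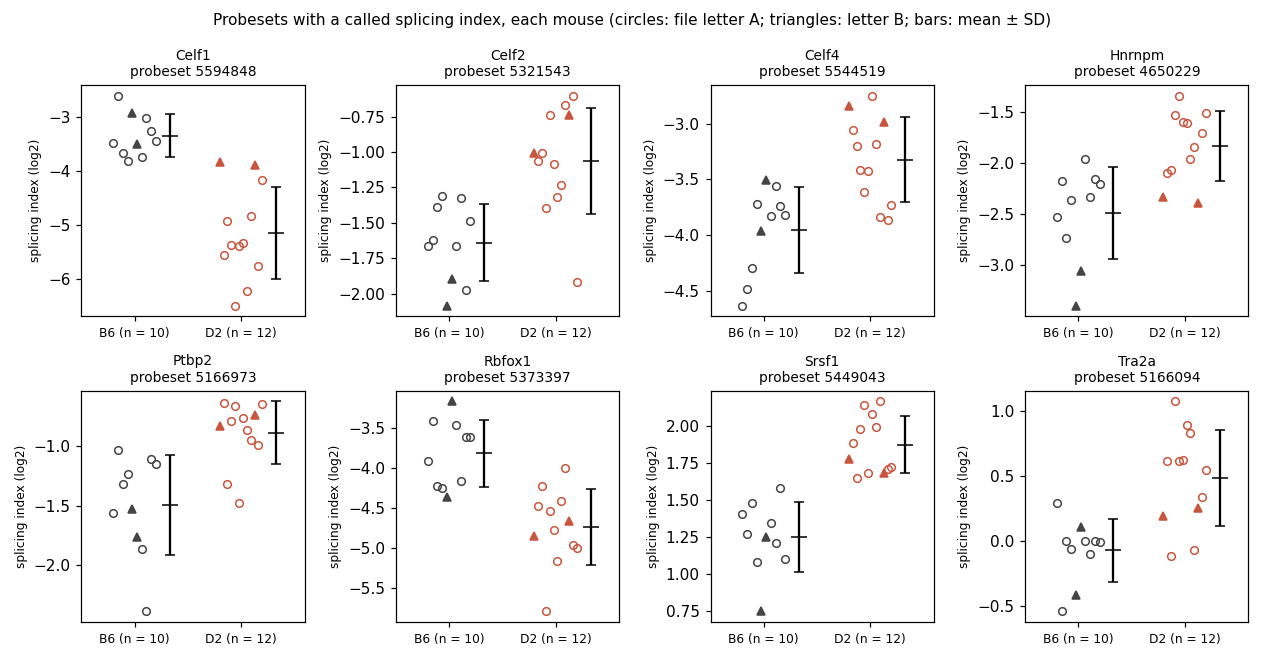
Splicing index (log2) of the 8 called probesets in each mouse, with open circles for arrays of file letter A, filled triangles for letter B, and bars for the mean ± SD of 10 B6 and 12 D2 mice. The strains do not overlap in Celf1 and Srsf1, and in the other 6 genes some D2 mice lie within the B6 range. The 8 probesets were chosen by their call, so the separation is no further support.

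**Figure D4:**
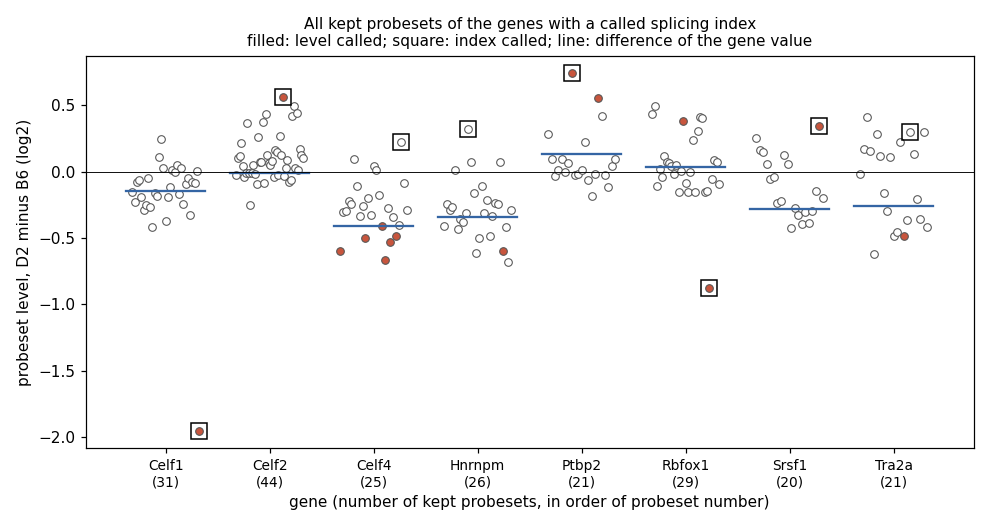
Difference of the probeset level, D2 minus B6 (log2), for every kept probeset of the 8 genes with a called index (squares), with filled points where the level itself was called and a line at the difference of the gene value. The Celf1 probeset at -1.95 stands apart from the other 30 of that gene, while the points of Celf4 lie mostly below 0.

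More of these genes were called between the arrays of the 2 file letters than between the strains. With strain in the same fit, 17 of the 47 genes were higher and 4 lower on the letter B arrays (44.7%, against 14.7% of all genes tested, 4.54% higher and 10.2% lower). This comparison was added after the data were seen. All 21 differences had the same sign within B6 alone and within D2 alone. The 21 were picked in a fit that held these same arrays, so the shared sign is no separate support. Within B6 alone and within D2 alone, with 2 letter B arrays each, 4 and 3 of the 47 genes were called (0.928% and 1.05% of all genes tested).

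Direction differed between some of the families. Of 11 SR genes, 8 were higher on letter B and 3 were not called, and of 12 hnRNP genes, 7 were higher and 5 were not called. Hnrnph3 stood highest, at 0.88 ± 0.094 (SE; limma adjusted p = 4.52e-06). It was 6.12, 6.03, 6.21 and 5.84 on the 4 letter B arrays, and between 4.73 and 5.44 on the letter A arrays. Hnrnpm (0.75), Hnrnpa3 (0.71), Tra2a (0.63) and Hnrnpu (0.31) likewise had letter B values above every letter A array. Such separation was seen for 2.14% of all genes tested. Hnrnpf (0.63), Srsf3 (0.58), Hnrnpd (0.56), Srsf10 (0.51), Srsf7 (0.50), Srsf5 (0.48), Hnrnpa1 (0.46), Srsf1 (0.43), Srsf9 (0.34) and Srsf11 (0.33) were also higher on letter B, as were Elavl4 (0.43) and Tardbp (0.34). Srsf2 (0.0085), Srsf4 (0.0065) and Srsf6 (0.057) were not called. Some letter calls depended on the gene summary. With the mean over probesets Srsf11 (0.17, limma adjusted p = 0.187) and Elavl4 (0.053, adjusted p = 0.654) lost their calls. Srsf6 (0.30), Hnrnpa2b1 (0.55), Hnrnph1 (0.44), Mbnl2 (0.17) and Celf3 (-0.31) gained one. All 21 main calls kept their sign in that run. There 24 of the splicing regulators were called, where 23.5% of all genes tested were.

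The CELF genes lay on the other side of 0, all 6 of them (5 of 6 with each array centred and 5 of 6 in D2 alone). Most genes lay on that side: 6299 of the 15951 genes tested were above 0, with a median of -0.067. Of the 6 CELF genes 4 were not called. Celf5 (-0.56 ± 0.11, SE) and Celf4 (-0.28 ± 0.091) were called, as were Nova2 (-0.56) and Ptbp1 (-0.44). With each array centred Celf4 was no longer called (-0.23, adjusted p = 0.115). Celf5 was 6.28, 6.00, 6.18 and 6.36 on the letter B arrays, against a letter A median of 6.76. Among 10 neuronal markers 5 were lower on letter B, including Nefl (-0.83), Syn1 (-0.71) and Tubb3 (-0.64), and 2 were higher, Nefm (0.80) and Stmn2 (0.33). The mean of these markers ranged from 8.02 to 8.34 on letter B and from 8.15 to 8.54 on letter A, and none lay below the filter level. Of 9 myelin markers Mobp was lower (-0.26) and of 8 endothelial markers Cdh5 (-0.44), while none of 10 astrocyte, 9 microglial and 8 muscle markers was called. The part of these cells in the pattern was not tested. The lists described below were also compared by letter, where 14.7% of all genes tested were called. Of the 46 other splicing regulators 14 were higher and 2 lower on letter B (34.8%), with Hnrnph2 at 0.79. Of 9 SR protein kinase genes 3 were higher (33.3%), with Clk4 at 0.53 and Clk1 at 0.40. Of 24 U1 and U2 genes 8 were higher and 3 lower (45.8%), including Sf3b5 (-0.67) and Sf3a2 (-0.64). Of 27 genes of the U4/U6.U5 particle and the Prp19 complex 4 were higher and 1 lower (18.5%). Of 41 neuronal genes with regulated exons 0 were higher and 8 lower (19.5%).

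**Figure D5:**
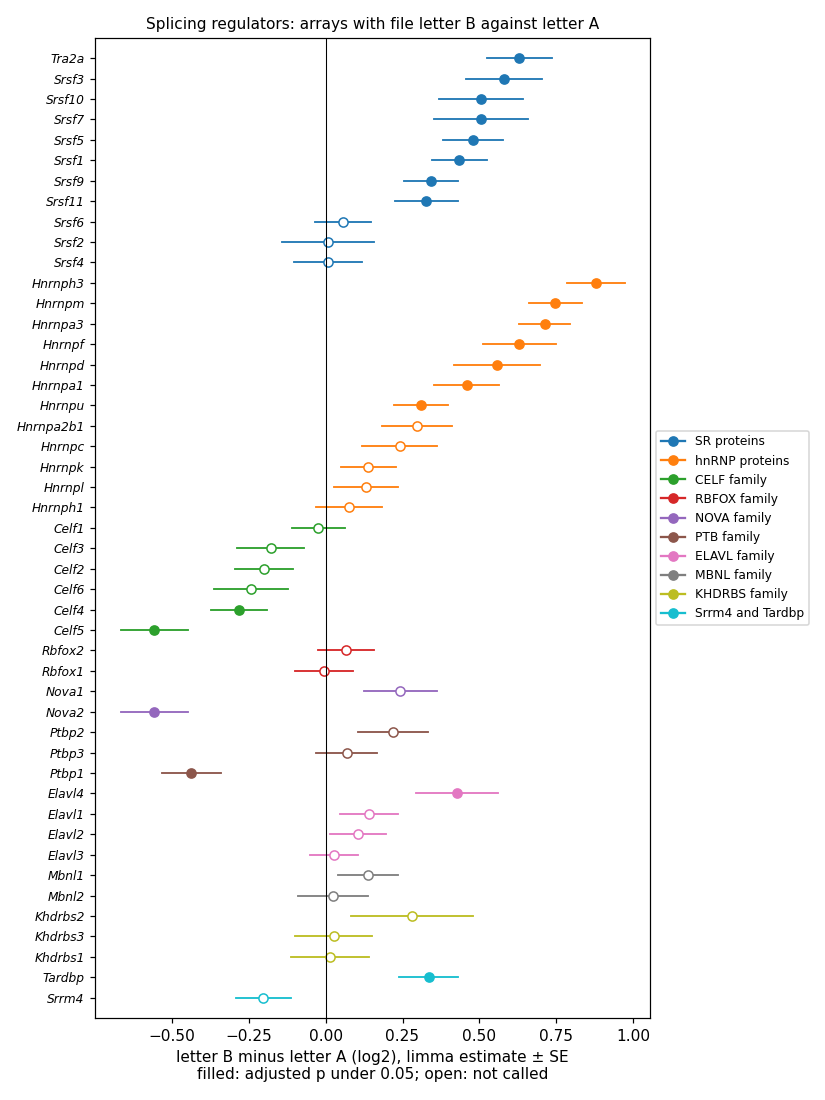
Difference between arrays of file letter B (4) and letter A (18) of the gene value (log2) for the 47 splicing regulators, with strain in the fit, as limma's estimate ± SE. Filled points mark an adjusted p under 0.05: SR and hnRNP genes lie to the right, up to 0.88 (Hnrnph3), and the CELF genes to the left, down to -0.56 (Celf5).

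The spread between mice of a strain was next set beside the letter. The median SD within a strain was 0.251 for the SR and 0.246 for the hnRNP genes, and 0.183 and 0.170 within strain and letter. It was smaller within strain and letter for 36 of the 47 genes (76.6%, against 61.6% of all genes tested). This partly restates the letter differences above, which come from the same arrays. For all genes tested the medians were 0.253 and 0.236. The within-strain spread was smallest in Elavl3 (SD 0.106, percentile 0.802 among all genes tested), and Celf1, Rbfox2 and Srsf6 were also under percentile 7. It was largest in Khdrbs2 (0.394, percentile 89.9) and Hnrnph3 (0.385, percentile 88.7). In single mice many of the genes stood on one side of their strain. In D2 replicate 19 and in B6 replicate 1, 37 of the 47 genes lay below the median of their strain, where 66.1% and 57.0% of all genes did. In B6 replicate 5, of letter B, 12 of the 47 did, against 48.9% of all genes. D2 replicate 19 also had the highest array median of all mice (1.51).

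The rest of the splicing machinery was set beside these regulators, from lists chosen by function. Of 24 genes of the U1 and U2 particles and of splice site recognition, 2 rose and 5 fell (29.2%, against 10.9% of all genes tested). Snrpe, a core Sm protein, rose by 1.40 ± 0.20 (SE; 4.55 ± 0.58 in B6, 5.95 ± 0.44 in D2, SD; limma adjusted p = 1.48e-05) over 5 probesets, of which 2 had a lowered index. Its difference was 0.87 without the filter, 0.85 with the filter at the 75th percentile and 0.92 with the mean over probesets, and it was called in each. Snrpn, an imprinted neuronal Sm protein gene, rose by 0.46 from a low level (3.05 ± 0.17 in B6, 3.51 ± 0.24 in D2, SD). It had 6 probesets, of which 2 had a raised index. Phf5a (-0.51), U2af2 (-0.39), which binds the polypyrimidine tract, Snrpa1, Snrpf and Snrpd3 fell. Of 27 genes of the U4/U6.U5 particle and the Prp19 complex, Dhx8 (-0.32) and Eftud2 (-0.23) fell (7.41%). None of the 9 genes of SR protein kinases, which set where SR proteins act, was called. An unadjusted p under 0.05 was seen for 2 of them, against 25.3% of all genes tested. Of 46 other regulators, Rbm24 (-0.43), Rnps1 (-0.39), Ythdc1 (-0.27) and Nono (-0.26) fell (8.70%). Of these 13 calls, 4 remained with each array centred (Snrpe, Snrpn, Rbm24 and Rnps1) and 1 with the array median as covariate (Snrpe). With the mean over probesets, with the filter at the 75th percentile and on the letter A arrays alone 8 remained each, without the arrays D2 replicates 13, 14 and 19 there were 6, and on letter B alone 0. With the mean, U2af2 was at -0.080 (adjusted p = 0.417) and Phf5a at -0.27 (adjusted p = 0.0818).

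Neuronal genes whose exons these proteins are known to control were the last group. Of 41 measured, 0 were called at gene level by limma, against 10.9% of all genes tested. An unadjusted p under 0.05 was seen for 7 of the 41, against 25.3% of all genes tested. Their differences ranged from -0.24 to 0.25. An index call was seen in 13 of the 41 (31.7%, against 14.0% of all genes tested), but these genes have a median of 34 probesets, and per probeset the share was 1.13%, against 1.67%. The calls were 7 higher and 11 lower in D2. Nrxn2 and Ank2, with 3 each, and Cacna1c, with 2, had more than one, and these genes were chosen after their values were seen.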

How the data were processed

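Log2 intensity values of 22 Affymetrix Mouse Exon 1.0 ST arrays were used as deposited by the authors. RMA, affy 1.12.2 and R 2.6.0 are named in the submitters' processing notes, while the RMA options, probeset definition and genome build are not given in the sources used here. Of 24 arrays hybridised, 2 were left out by the authors, per the labels. Of 1201338 probesets, 10932 were empty on all arrays. Probesets with a mean of at least 1.44 (595203) and 1 gene symbol were kept, in genes with at least 3 of them. The gene value was their median, and the splicing index a probeset's value minus it. Strains were compared with limma 3.58.1 (lmFit, eBayes) in R 4.3.3 over all 15951 genes, 236254 indices or 595203 probesets, with Benjamini-Hochberg adjustment, after a test on simulated data. A call needed an adjusted p under 0.05, and for the index a difference of at least 0.5. The genes named are the list's members, and of other lists those called. Members and lists were chosen with earlier results of these data known. Alternatives were the scaling, filter, gene summary, file letter and arrays used. The labels give 1 mouse per array, so the p-values rest on the variation among mice. Array precision is limited by the number of mice. Figures used matplotlib 3.10.9.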

Additional observations from a re-analysis of the deposited data

Results flagged for a closer look

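Srsf4 in B6 replicate 9 had a gene value of 6.02, below the other 9 B6 mice, the nearest of which was at 6.52 and the highest at 6.81. Its gap of 0.631 of the range was past Dixon's limit for 10 samples. The B6 values of 47 genes were examined in this way and 1 stood out, where chance gives about 1 in 20. The D2 group of 12 mice was too large for this rule.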

How the results depend on the processing

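No paired analysis was possible because the strains share no replicate number. The main count of 1 of the 47 genes lower in D2 was 0 with the array median as covariate and on the letter B arrays alone, 5 with the filter at the 75th percentile, and 4 each with the mean over probesets, with the letter as a block and on letter A alone. Over all genes, 1732 calls became 489 with the covariate, 2715 with the mean and 74 on letter B alone. Of all calls 76.4% were lower in D2, against 42.2% with arrays centred on their gene median and 46.2% with the covariate.

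The 2 centrings differed. Gene values were centred on each array's gene median, after which the median difference of all genes was 0.047, against -0.053. Probeset levels were centred on each array's overall probeset median, which ran higher in D2. Of the probeset levels, the 6 higher became 2 (centred), 11 (75th percentile), 0 (letter B alone) and 3 (without D2 replicates 13, 14 and 19, chosen after seeing the data). The 16 lower became 25 (centred), 2 (covariate), 27 (75th percentile), 33 (letter block) and 0 (letter B alone). All 23265 became 10983 (covariate) and 436 (letter B alone). For the index, the 6 higher became 1 (covariate), 2 (mean), 3 (letter A alone), 0 (letter B alone) and 2 (without the 3 arrays). The 2 lower became 0 (covariate), 1 (75th percentile, where the Celf1 probeset is filtered out) and 0 (letter B alone). All 3935 became 2113 (covariate) and 0 (letter B alone). The 17 genes higher on letter B became 4 in B6 alone and 3 in D2 alone, and the 4 lower became 0 in each. With the mean over probesets 24 of the splicing regulators were called by letter, against 21 in the main run. Letter B alone and the single strains hold fewer arrays, and the covariate is partly aligned with strain. For the other changes the cause was not tested. Of the 8 index differences none was called with the covariate, though that of Celf1 was -1.59 against -1.81. Against the main run no called value reversed. Khdrbs2, not called in the main run, differed in sign between alternatives, as given above.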
